A study of Mus musculus with 9 samples.

Results

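The genes described here are 47 members of the Wnt signalling system, measured by RNA sequencing in 3 cell populations sorted by flow cytometry from testes of mouse embryos aged 12.5 days post coitum (dpc). They were chosen by symbol: 18 Wnt ligands, 10 Frizzled receptors, 3 R-spondins, 3 Lgr receptors for R-spondins, 5 secreted Frizzled-related inhibitors (Sfrp1, Sfrp2, Sfrp4, Sfrp5 and Frzb), 3 Dickkopf genes, Wif1, and the feedback and target genes Axin2, Lef1, Znrf3 and Rnf43. Wnt4 and Rspo1 were not on the list. All 47 were found among the 38560 genes of the count table.

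The populations are named Leydig, Interstitial and Sertoli in the labels, and each has replicates A, B and C. Leydig cells make fetal androgens, the interstitium is the tissue between the testis cords, and Sertoli cells form the cords around the germ cells. All 9 libraries came from embryos of the Sf1-eGFP strain, whose green fluorescent reporter is named for Sf1 (Nr5a1), a transcription factor of steroid-making and supporting cells of the gonad. The samples included no treated or mutant group. Gonads were sexed by their cords, cells were stained with an antibody to CD31 to take out germ and endothelial cells, and each library stands for about 10 sorting days of 4 to 10 litters pooled. The sources used here do not give the sorting gates. The protocol describes samples A, B and a mix of both; replicate C was read as that mix because it is the one left over, a point the labels leave unsaid, and it is shown but not tested. Because litters were pooled, the p-values reflect how pools vary and say nothing of animals.

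Wnt proteins are secreted, lipid-modified signals. They bind a Frizzled receptor, and in the β-catenin branch also the co-receptors Lrp5 and Lrp6, which spares β-catenin from breakdown and lets it act with TCF/LEF factors on target genes such as Axin2. R-spondins bind Lgr4, Lgr5 or Lgr6 and hold back Znrf3 and Rnf43, ubiquitin ligases that clear Frizzled receptors from the cell surface, whereas Sfrp proteins and Wif1 bind Wnts and Dkk1 binds the co-receptors. In the early gonad the β-catenin branch is known for promoting ovarian development and opposing testis development, and in mice loss of Znrf3 can turn XY gonads toward the ovarian path.

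Expression is given as counts per 1e6 reads in genes, scaled between libraries by the TMM method (CPM below). Levels of different genes are compared only after dividing by exon length (CPM per kb). A gene was called when its adjusted p in edgeR's quasi-likelihood test, corrected over the 18048 genes tested, was below 0.05. Differences are on the log2 scale, with their standard error (SE), and each adjusted p printed is edgeR's where no tool is given. In such bulk libraries fewer cells of a type and less RNA per cell cannot be told apart. The 3 comparisons share libraries, so they are not independent of each other.

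Depth was alike across libraries, 33.12 to 39.24 M reads in genes (M, 1e6). A library without a read for a gene leaves room for up to 3 reads, equal to 0.0764 to 0.0906 CPM, counting error only. Sertoli markers such as Amh and Sox9 marked the Sertoli libraries: the 10 genes of that list summed to 1050 to 1090 CPM in Leydig, 173 to 201 CPM in Interstitial and 3540 to 3730 CPM in Sertoli. The Leydig label was not borne out against Sertoli. Of 7 fetal Leydig markers, 1 (Mc2r) was called higher in Leydig than in Sertoli, and the list summed to 242 to 454 CPM in Leydig, 44.5 to 68.5 CPM in Interstitial and 253 to 303 CPM in Sertoli. All 7 were higher in Leydig than in Interstitial. The Leydig libraries led in the interstitial progenitor marker Pdgfra, a growth factor receptor gene (659 to 723 CPM, against 429 to 440 CPM in Interstitial and 215 to 227 CPM in Sertoli). The Interstitial libraries held markers of other cells. The 7 germ cell markers summed to 87 to 269 CPM in Leydig, 905 to 1030 CPM in Interstitial and 79.9 to 114 CPM in Sertoli, and the 6 erythroid markers to 50.7 to 168 CPM, 6320 to 7070 CPM and 62.8 to 146 CPM in the same order. The 10 mesonephric markers summed to 85.1 to 103 CPM in Leydig, 212 to 243 CPM in Interstitial and 98 to 99.4 CPM in Sertoli. The 5 mesothelial markers found summed to 98.3 to 109 CPM in Leydig, 149 to 184 CPM in Interstitial and 7.37 to 8.4 CPM in Sertoli, and the 7 macrophage and leukocyte markers to 10.9 to 19.9 CPM, 44.2 to 71 CPM and 1.23 to 1.97 CPM in the same order. Both lists thus had the order of Wnt2b, Rspo3, Sfrp2, Axin2 and Lef1 described below, and their part in those genes' levels was not tested. Leydig replicates A and B differed: B had the highest germ cell and erythroid sums and the lowest fetal Leydig sum of its population. Replicate C, read as their mix, lay between them in these sums, so which pool is the unusual one cannot be told.

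Of the 47 genes, 39 had enough reads to be tested. The other 8 were Wnt1, Wnt3a, Wnt8a, Wnt8b, Wnt10a, Wnt10b, Rspo2 and Rspo4, none of which exceeded 0.323 CPM in any library. Wnt7a, Wnt7b, Wnt9b, Wnt16 and Sfrp5 passed the filter on low counts only through the Interstitial libraries, so their place in the counts below was partly set by that filter. In Leydig against Sertoli, 19 of the 39 were higher and 10 lower (74.4%, where 37.5% of all genes tested were called, 16.9% higher and 20.6% lower). In Leydig against Interstitial, 7 were higher and 18 lower (64.1%, where 45.1% of all genes were called, 22.0% higher and 23.2% lower). In Interstitial against Sertoli, 27 were higher and 9 lower (92.3%, where 61.8% of all genes were called, 32.7% higher and 29.1% lower). The median log2 difference of all 39 tested Wnt genes in these comparisons was 0.50, -0.30 and 1.27, beside -0.01, 0.01 and 0.04 over all genes tested. These medians include the 5 genes that passed only through Interstitial, so the filter partly set them. Without the 5 genes that passed only through Interstitial, 34 remained, of which 18 were higher and 10 lower in Leydig than in Sertoli, 7 higher and 14 lower in Leydig than in Interstitial, and 22 higher and 9 lower in Interstitial than in Sertoli. By mean level, 7 of these 34 were highest in Leydig, 17 in Interstitial and 10, Wnt6 among them, in Sertoli. Over all genes tested the shares were 22.6%, 43.0% and 34.4%.

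**Figure D1:**
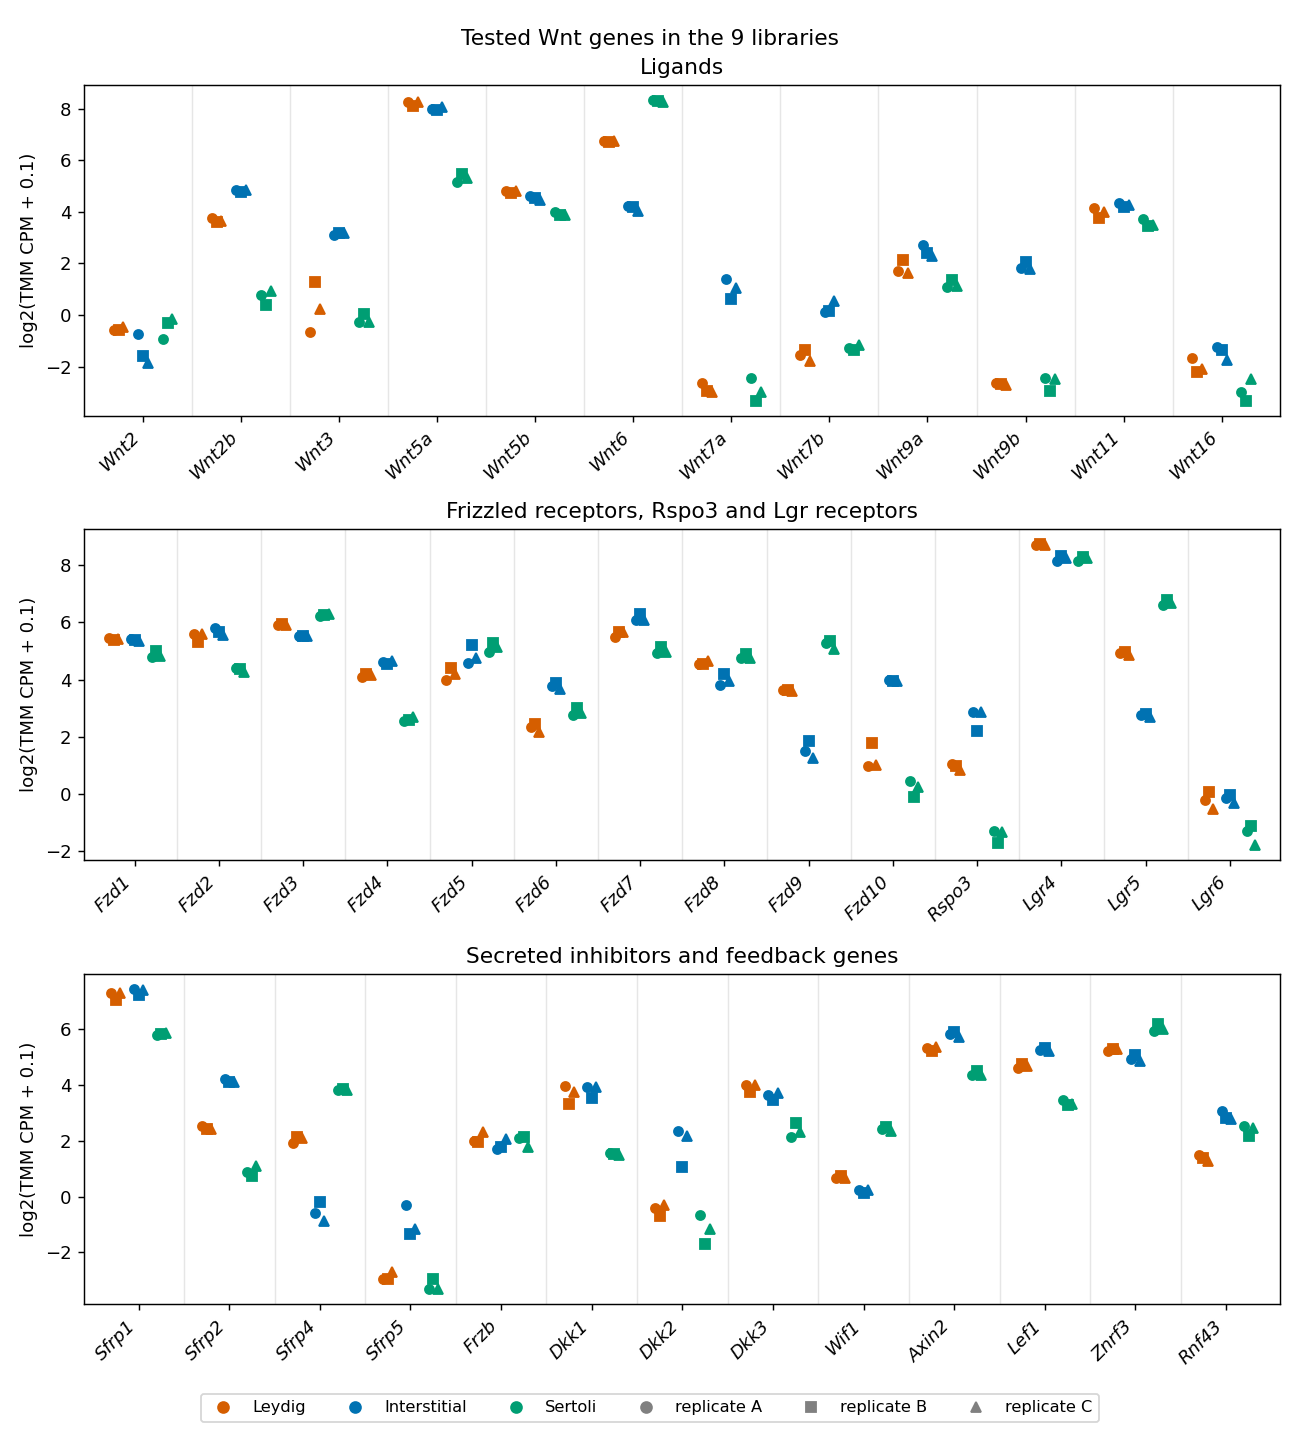
Level of each of the 39 tested Wnt genes in the 9 libraries, as log2 of TMM-scaled CPM plus 0.1; colours mark the populations and symbols the replicates. Without the 5 genes tested only through Interstitial, 17 of 34 have their highest mean in Interstitial (43.0% of all genes tested). Wnt6, Fzd9, Lgr5, Sfrp4, Wif1 and Znrf3 are among the 10 highest in Sertoli (34.4% of all genes tested).

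The promoters of 4 of these genes are shown because the genes differ in pattern: Axin2, a target gene, and Wnt3, a ligand, were highest in Interstitial, Dkk1, an inhibitor, was high in Leydig and Interstitial, and Wnt6 was highest in Sertoli. Each window runs from 250 bases before to 50 after the start site, from RefSeq on GRCm38.p6, and is printed on the strand of the gene. The windows are chr11:108920099-108920398 (plus strand) for Axin2, chr11:103773925-103774224 (plus strand) for Wnt3, chr19:30549447-30549746 (minus strand) for Dkk1 and chr1:74771642-74771941 (plus strand) for Wnt6. Capitals mark CTTTGA or CTTTGT, the core letters of TCF/LEF motifs, on either strand.
Axin2: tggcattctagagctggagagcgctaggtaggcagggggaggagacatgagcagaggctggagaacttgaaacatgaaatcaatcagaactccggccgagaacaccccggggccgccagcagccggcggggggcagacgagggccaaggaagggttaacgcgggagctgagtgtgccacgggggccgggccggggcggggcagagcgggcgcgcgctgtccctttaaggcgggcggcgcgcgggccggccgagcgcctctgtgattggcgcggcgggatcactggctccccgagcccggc
Wnt3: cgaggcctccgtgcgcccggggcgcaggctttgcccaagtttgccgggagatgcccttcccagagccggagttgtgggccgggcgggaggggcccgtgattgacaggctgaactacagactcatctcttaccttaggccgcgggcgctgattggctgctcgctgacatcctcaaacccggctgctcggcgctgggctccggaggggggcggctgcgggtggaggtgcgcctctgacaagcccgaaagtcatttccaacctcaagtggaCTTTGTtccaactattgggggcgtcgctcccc
Dkk1: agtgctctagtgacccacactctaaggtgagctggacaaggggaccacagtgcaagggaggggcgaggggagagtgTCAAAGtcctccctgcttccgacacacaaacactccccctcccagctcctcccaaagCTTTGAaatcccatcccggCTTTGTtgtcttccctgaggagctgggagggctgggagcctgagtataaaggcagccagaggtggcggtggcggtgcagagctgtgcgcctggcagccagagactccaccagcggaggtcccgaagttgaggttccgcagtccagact
Wnt6: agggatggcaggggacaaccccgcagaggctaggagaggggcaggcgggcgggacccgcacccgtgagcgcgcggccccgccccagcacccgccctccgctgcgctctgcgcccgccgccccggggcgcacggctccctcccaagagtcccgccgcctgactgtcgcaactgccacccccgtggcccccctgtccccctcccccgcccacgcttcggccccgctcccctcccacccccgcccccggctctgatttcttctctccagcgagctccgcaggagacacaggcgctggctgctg

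The Dkk1 window held 3 matches, at 174, 117 and 98 bases before the start site, and the Wnt3 window 1 match, 18 bases after it. The Axin2 and Wnt6 windows held none, and they were rich in G and C (70.0% and 76.7%, beside 60.7% for Dkk1). RefSeq windows were matched for 32 of the 47 genes, 39 windows in all. Of these 39 windows 25.6% held either motif, beside 31.2% of the 32851 windows of all genes. Besides Dkk1 and Wnt3, the Wnt genes with a match were Dkk2, Frzb, Fzd1, Fzd7, Lef1, Wnt5b, Wnt8b and Wnt11. The motifs overlap in their first 5 letters and were counted on both strands, and a match is only a run of letters.

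Wnt6 was the leading ligand in Sertoli and Wnt5a in Interstitial, and the Leydig libraries held both at like levels. Per kb of exon, Wnt6 averaged 48.0 CPM in Leydig, 8.35 in Interstitial and 146 in Sertoli, whereas Wnt5a averaged 37.2 in Leydig, 31.8 in Interstitial and 5.13 in Sertoli. Wnt6 made up 90.3% of the summed ligand level in Sertoli and 46.0% in Leydig, and Wnt5a made up 47.5% in Interstitial. The ratio of Wnt6 to Wnt5a per kb was 1.25, 1.34 and 1.25 in Leydig, 0.261, 0.264 and 0.218 in Interstitial and 32.0, 25.5 and 27.7 in Sertoli. These ranges did not overlap. The summed ligand level per kb was 101 to 108 CPM in Leydig, 65.5 to 68.4 CPM in Interstitial and 155 to 162 CPM in Sertoli.

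**Figure D2:**
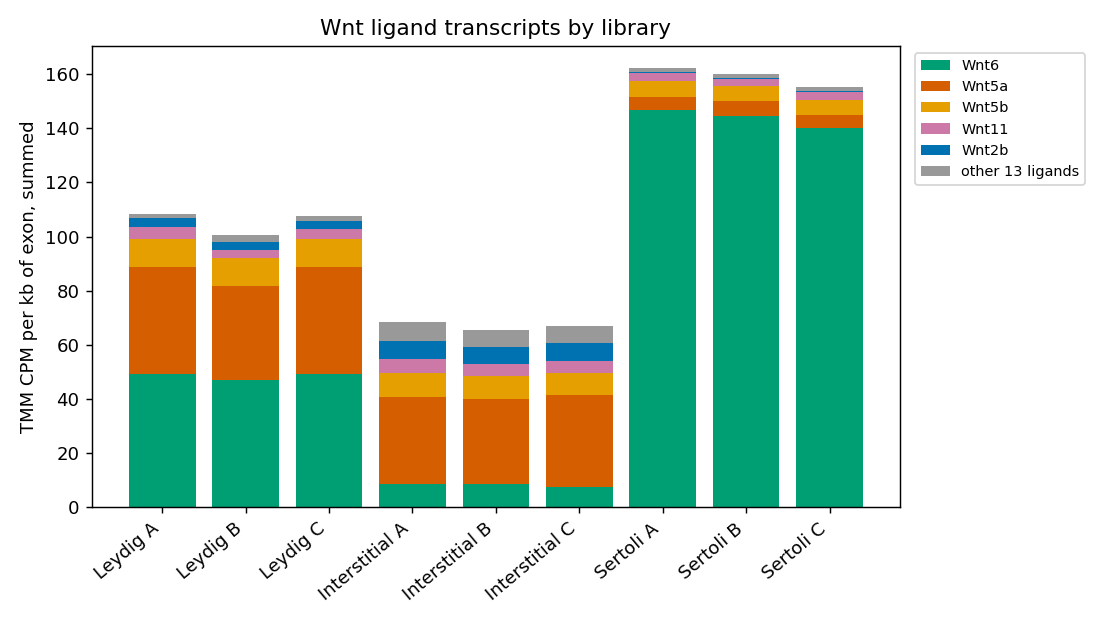
Stacked level of the Wnt ligands in each library, in TMM-scaled CPM per kb of exon. Wnt6 (green) fills most of each Sertoli bar, Wnt5a (orange) is the largest part of each Interstitial bar, and Leydig holds both.

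Wnt6 (ENSMUSG00000033227, chromosome 1, 74771892 to 74785322, GRCm38) lies next to Wnt10a, which starts at 74791516 and stayed below the filter. In replicates A, B and C, in that order here and below, its level was 108, 103 and 108 CPM in Leydig, 18.4, 18.2 and 16.2 CPM in Interstitial, and 322, 317 and 307 CPM in Sertoli. The populations were fully separated. The difference was -1.64 ± 0.06 in Leydig against Sertoli (adjusted p 1.21e-06), 2.54 ± 0.06 in Leydig against Interstitial (2.73e-07) and -4.18 ± 0.07 in Interstitial against Sertoli (6.34e-09). Most Sertoli markers moved with it: 9 of 10 were lower in Leydig than in Sertoli, with a median log2 difference of -1.79 over the list. In Leydig against Interstitial their median was 2.90, with 8 higher and 2 lower. Whether Sertoli cells or their RNA in the Leydig sort set the Wnt6 level there was not tested.

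Wnt5a (ENSMUSG00000021994, chromosome 14, 28504750 to 28527448), which signals mostly through β-catenin-independent routes and is a common ligand of embryonic mesenchyme, had the opposite pattern. It was at 309, 273 and 308 CPM in Leydig, 252, 246 and 265 CPM in Interstitial and 35.9, 44.4 and 39.4 CPM in Sertoli. All Leydig and Interstitial libraries lay above all Sertoli libraries. The log2 difference was 2.82 ± 0.11 in Leydig against Sertoli (adjusted p 1.21e-06) and 2.58 ± 0.11 in Interstitial against Sertoli (1.7e-07), whereas Leydig against Interstitial missed the threshold at 0.24 ± 0.10 (0.0734). Its exons overlap those of the antisense gene Gm2670, and no source used here gives the strand setting of the counting, so some reads may belong to that gene. The same holds for Wnt7b, Fzd6, Sfrp2 and Axin2, which overlap antisense or other genes, and for Wnt11, which overlaps Gm8398. Among the other pathway genes named below, exons of Notum, Dact1, Ctnnb1, Kremen2 and Tcf7l1 also overlap those of genes on the opposite strand.

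Wnt2b, a ligand of mesenchyme in many organs, was at 13.4, 12.2 and 12.3 CPM in Leydig, 28.8, 27.1 and 28.4 CPM in Interstitial and 1.6, 1.2 and 1.78 CPM in Sertoli. The 3 populations were fully separated, with Interstitial highest and Sertoli lowest. The log2 difference was 3.15 ± 0.15 in Leydig against Sertoli (adjusted p 2.1e-06), -1.11 ± 0.11 in Leydig against Interstitial (0.000141) and 4.26 ± 0.15 in Interstitial against Sertoli (6.66e-08). Wnt9a followed the same order at lower levels, with 3.19, 4.29 and 2.95 CPM in Leydig, 6.46, 5.12 and 4.78 CPM in Interstitial and 2.02, 2.46 and 2.07 CPM in Sertoli. Its difference of 1.31 ± 0.22 in Interstitial against Sertoli had an adjusted p of 0.0008. Both calls on the Leydig libraries were fragile. Leydig against Sertoli (0.70 ± 0.22, adjusted p 0.0384) was lost without Leydig replicate B (adjusted p 0.163), Sertoli A (0.202) or Sertoli B (0.0758), and Leydig against Interstitial (-0.62 ± 0.21, 0.0399) without Leydig A (0.192), Interstitial A (0.207), Sertoli A (0.0589) or Sertoli B (0.0591).

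Wnt3, Wnt7a, Wnt7b and Wnt9b were highest in Interstitial and low in both other populations. Wnt9b, known as a signal of the mesonephric (Wolffian) duct that induces tubules, was at 0.0602, 0.0576 and 0.0541 CPM in Leydig, 3.39, 4.10 and 3.33 CPM in Interstitial and 0.0842, 0.0293 and 0.0808 CPM in Sertoli. Leydig and Sertoli lay at or below the level of 3 reads. Over replicates A and B, 4 reads in Leydig and 4 in Sertoli stood against 278 in Interstitial, a ratio of 0.0158 for Leydig over Interstitial (95% exact interval 0.00429 to 0.041) and of 64.8 for Interstitial over Sertoli (25 to 239). The fitted log2 difference in Interstitial against Sertoli was 5.89 with both replicates and 6.78 without Sertoli A. These intervals cover counting error only. The mesonephric tubule marker Cdh16 was at 0.391, 0.893 and 0.595 CPM in Leydig, 20.9, 24.1 and 22.1 CPM in Interstitial and 0.112, 0.0587 and 0.162 CPM in Sertoli, and 8 of the 10 genes of the mesonephric list were lower in Leydig than in Interstitial. The part of mesonephric cells in the Wnt9b difference was not tested.

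Wnt7a, a ligand known from the female (Müllerian) duct and the limb, was at 0.0602, 0.0288 and 0.0271 CPM in Leydig, 2.55, 1.45 and 1.94 CPM in Interstitial and 0.0842, 0 and 0.0269 CPM in Sertoli. Over replicates A and B this was 3 reads in Leydig, 153 in Interstitial and 3 in Sertoli, a ratio of 47.5 for Interstitial over Sertoli (95% exact interval 16 to 233). All 3 of these Sertoli reads were in replicate A, and the fitted log2 difference in Interstitial against Sertoli, 5.39 with both replicates, was 9.14 without Sertoli A and 4.46 without Sertoli B; such fitted values depend on the prior count of the fit. Wnt7b, a ligand of epithelia, was at 0.241, 0.288 and 0.189 CPM in Leydig, 0.990, 1.02 and 1.34 CPM in Interstitial and 0.309, 0.293 and 0.350 CPM in Sertoli. Its difference was -1.89 ± 0.33 in Leydig against Interstitial (adjusted p 0.00196) and 1.67 ± 0.32 in Interstitial against Sertoli (0.00181). For both genes every Interstitial library lay above the 6 others. Wnt16 stood at 0.211, 0.115 and 0.135 CPM in Leydig, 0.322, 0.291 and 0.199 CPM in Interstitial and 0.0281, 0 and 0.0808 CPM in Sertoli. These are a few reads per library: 11 in Leydig and 1 in Sertoli over replicates A and B, a ratio of 11.3 (1.64 to 486). The call on that pair (adjusted p 0.0333) was lost when Leydig replicate A, Sertoli A, Sertoli B, Interstitial A or Interstitial B was left out, with adjusted p of 0.161, 0.0671, 0.174, 0.0673 and 0.0662.

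Wnt3, a ligand of the β-catenin branch, was at 0.541, 2.33 and 1.08 CPM in Leydig, 8.58, 8.90 and 8.98 CPM in Interstitial and 0.730, 0.939 and 0.727 CPM in Sertoli. Interstitial was above all others, and Leydig replicate B was the highest library outside it. The log2 difference was -2.58 ± 0.44 in Leydig against Interstitial (adjusted p 0.00184) and 3.33 ± 0.48 in Interstitial against Sertoli (0.000331), and Leydig against Sertoli was not called (0.75 ± 0.54, 0.323). The size depended on the Leydig pool: Leydig against Interstitial was -4.00 without replicate B and -1.89 without replicate A, and Leydig against Sertoli was -0.61 without B and 1.44 without A. Leydig replicate B was the highest Leydig library in the germ cell marker Dazl, at 22.6, 99.8 and 44.5 CPM in Leydig, 361, 432 and 432 CPM in Interstitial and 37.7, 25.8 and 38.7 CPM in Sertoli. It was also high in Lhx1, a gene of mesonephric tubules, at 0.902, 6.28 and 2.16 CPM in Leydig, 21.3, 32.8 and 24.1 CPM in Interstitial and 1.74, 1.44 and 1.53 CPM in Sertoli. The part of such cells in the Wnt3 levels was not tested.

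**Figure D3:**
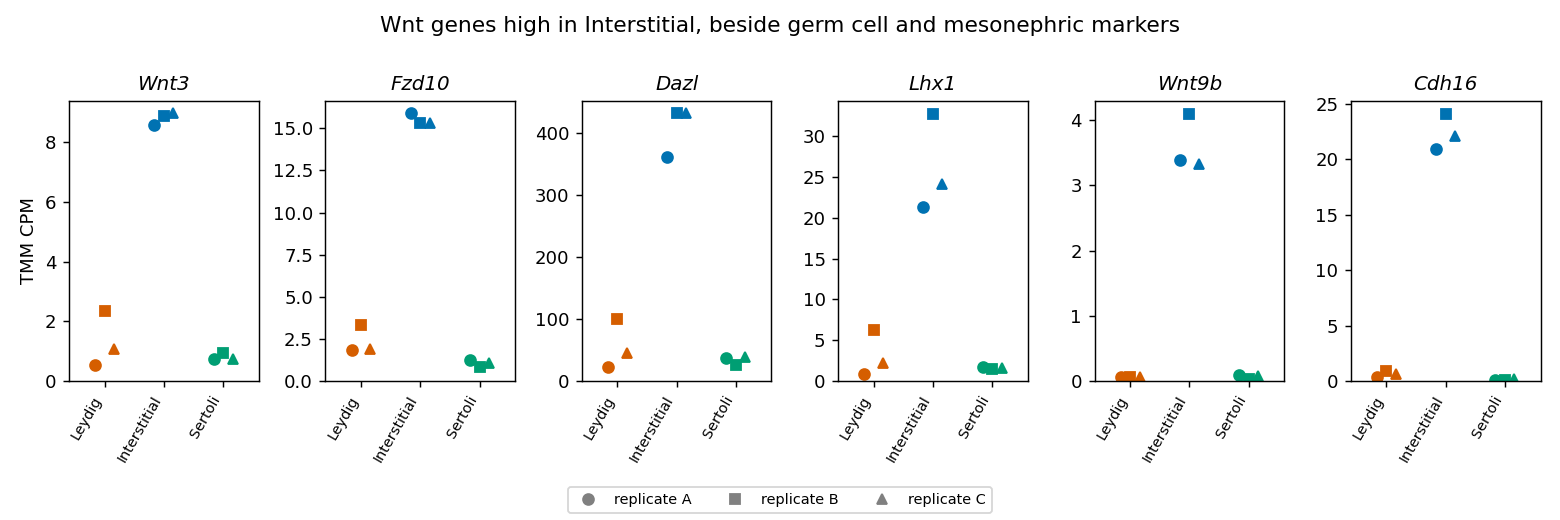
TMM-scaled CPM of Wnt3, Fzd10 and Wnt9b in each library beside the germ cell marker Dazl and the mesonephric genes Lhx1 and Cdh16; symbols mark replicates. Interstitial is highest in every panel, and Leydig replicate B is the highest Leydig library for Wnt3, Fzd10, Dazl, Lhx1 and Cdh16.

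The remaining tested ligands differed little. Wnt5b, a close relative of Wnt5a, reached 27.8 CPM in Leydig, with its lowest value, 14.6 CPM, in Sertoli, and was higher in Leydig (0.79 ± 0.09, adjusted p 0.000156) and in Interstitial (0.56 ± 0.09, 0.000572) than in Sertoli. Wnt11, a ligand of cell movement and tubule branching, was higher in Interstitial than in Sertoli by 0.63 ± 0.15 (0.00561), a call lost without Sertoli replicate B (0.0567). Its Leydig level of 13.5 to 17.7 CPM was not called against either population. Wnt2 stayed below 1 CPM everywhere and was called in no comparison. In all, 5 of the 12 tested ligands were higher and 1 lower in Leydig than in Sertoli (6 of 12 called, beside 37.5% of all genes). In Leydig against Interstitial 1 was higher and 6 lower (58.3%, beside 45.1%), and in Interstitial against Sertoli 10 were higher and 1 lower (91.7%, beside 61.8%). Without Wnt7a, Wnt7b, Wnt9b and Wnt16, which passed the filter only through Interstitial, the counts over the other 8 were 4 and 1, 1 and 3, and 6 and 1.

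All 10 Frizzled receptor genes were expressed, and their summed level per kb was close between the populations, at 54.0 to 55.2 CPM in Leydig, 59.6 to 65.7 CPM in Interstitial and 51.9 to 58.2 CPM in Sertoli. The make-up differed: Fzd2 was the largest part in Leydig (22.2%), Fzd7 in Interstitial (25.1%) and Fzd9 in Sertoli (30.9%). Of the 10, 5 were higher and 4 lower in Leydig than in Sertoli, 3 were higher and 5 lower in Leydig than in Interstitial, and 6 were higher and 3 lower in Interstitial than in Sertoli. These are 90.0%, 80.0% and 90.0% of the 10, beside 37.5%, 45.1% and 61.8% of all genes tested.

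Fzd9 stood out for Sertoli, with 12.4, 12.3 and 11.9 CPM in Leydig, 2.72, 3.52 and 2.31 CPM in Interstitial and 38.4, 40.6 and 33.9 CPM in Sertoli. The populations did not overlap. The difference was -1.72 ± 0.11 in Leydig against Sertoli (adjusted p 7.24e-06), 2.0 ± 0.13 in Leydig against Interstitial (1.13e-05) and -3.73 ± 0.13 in Interstitial against Sertoli (6.19e-08), so it stood beside the Sertoli marker list as Wnt6 did. Fzd3, a receptor of planar cell polarity and axon guidance, had the same order in a narrower range, 45.7 to 78.0 CPM over all libraries, and was called in all 3 comparisons (-0.35 ± 0.06, 0.42 ± 0.06 and -0.77 ± 0.06). Fzd8, at 13.8 to 29.7 CPM, was lower in Interstitial than in Sertoli (-0.87 ± 0.13, adjusted p 0.000446) and higher in Leydig than in Interstitial (0.55 ± 0.13, 0.00917), the second call being lost without Interstitial replicate A (0.053).

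Fzd10 ran the other way, with 1.84, 3.34 and 1.92 CPM in Leydig, 15.9, 15.3 and 15.3 CPM in Interstitial and 1.26, 0.822 and 1.08 CPM in Sertoli. Leydig replicate B, which was also the highest Leydig library in Dazl and Lhx1, was again the highest of its population. The difference was -2.57 ± 0.25 in Leydig against Interstitial (adjusted p 0.000115) and 3.84 ± 0.28 in Interstitial against Sertoli (6.27e-06). Leydig against Sertoli (1.27 ± 0.32, 0.0128) was lost without Sertoli replicate B (0.0999). Fzd4, the receptor for norrin in blood vessels, was at 17.0, 18.0 and 17.6 CPM in Leydig, 24.3, 23.1 and 25 CPM in Interstitial and 5.81, 5.93 and 6.35 CPM in Sertoli, fully separated. Its difference was 1.53 ± 0.10 in Leydig against Sertoli (7.47e-06), -0.43 ± 0.09 in Leydig against Interstitial (0.00492) and 1.96 ± 0.10 in Interstitial against Sertoli (5.44e-07). Against Sertoli, endothelial markers moved in the same direction, with 8 of the 9 higher in Leydig. Against Interstitial most did not, as 5 of the 9 were higher in Leydig and 2 lower. The list summed to 214 to 247 CPM in Leydig, 243 to 273 CPM in Interstitial and 45.4 to 48.4 CPM in Sertoli. Their part in the Fzd4 differences was not tested.

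Fzd2 and Fzd7 were the most abundant Frizzled genes per kb in Leydig and in Interstitial. Fzd2 was at 48.1, 40 and 47.7 CPM in Leydig, 55.2, 50.4 and 46.8 CPM in Interstitial and 21.1, 20.6 and 18.9 CPM in Sertoli. Leydig and Interstitial overlapped, and both lay above Sertoli, by 1.04 ± 0.10 (adjusted p 7.37e-05) and 1.28 ± 0.10 (9.07e-06). Fzd7 was at 45, 51.3 and 51.1 CPM in Leydig, 67.4, 78.0 and 68.6 CPM in Interstitial and 30.6, 35.4 and 31.4 CPM in Sertoli, without overlap. It was lower in Leydig than in Interstitial by 0.58 on the log2 scale (-0.58 ± 0.11, 0.00245) and higher in Interstitial than in Sertoli (1.08 ± 0.11, 3.57e-05). Its difference of 0.50 ± 0.11 in Leydig against Sertoli (0.00586) lost its call without Sertoli replicate A (0.0593). Fzd1 lay between 27.5 and 44.3 CPM and was higher in Leydig (0.49 ± 0.09) and in Interstitial (0.46 ± 0.09) than in Sertoli.

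Fzd5 and Fzd6 were lowest in Leydig. Fzd6, a receptor of planar polarity, was at 5.02, 5.33 and 4.41 CPM in Leydig, 13.5, 14.8 and 12.6 CPM in Interstitial and 6.71, 7.95 and 6.97 CPM in Sertoli. It was lower in Leydig than in Interstitial (-1.44 ± 0.13, adjusted p 8.74e-05), and its call in Leydig against Sertoli (-0.54 ± 0.14, 0.0141) was lost without Sertoli replicate B (0.0997). Fzd5 spread widely within Interstitial (23.8, 36.6 and 26.8 CPM), beside 15.7 to 21.2 CPM in Leydig and 31.4 to 38.9 CPM in Sertoli. Both of its calls depended on single libraries: Leydig against Sertoli (-0.97 ± 0.21, 0.0072) was lost without Sertoli replicate B (0.0658), and Leydig against Interstitial (-0.69 ± 0.21, 0.0284) without Leydig A (0.11) or Interstitial B (0.187).

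Among R-spondins only Rspo3 reached the filter. It was at 1.96, 1.84 and 1.70 CPM in Leydig, 7.2, 4.51 and 7.11 CPM in Interstitial and 0.309, 0.205 and 0.296 CPM in Sertoli. The populations were fully separated. The difference was 2.82 ± 0.38 in Leydig against Sertoli (adjusted p 0.000466), -1.61 ± 0.26 in Leydig against Interstitial (0.00133) and 4.43 ± 0.35 in Interstitial against Sertoli (8.5e-06).

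The receptors for R-spondins split by population. Lgr4 (ENSMUSG00000050199, chromosome 2, 109917647 to 110014257) was the most abundant of the 47 genes per kb in Leydig and Interstitial, at 71.9 CPM per kb in Leydig, 51.3 in Interstitial and 51.1 in Sertoli. It was at 419, 427 and 419 CPM in Leydig, 285, 318 and 308 CPM in Interstitial and 287, 314 and 304 CPM in Sertoli. Every Leydig library lay above the 6 others, and Interstitial and Sertoli overlapped (-0.05 ± 0.07, adjusted p 0.586). It was the only tested Wnt gene called higher in Leydig than in both others (0.45 ± 0.07 and 0.50 ± 0.07, adjusted p 0.00147 and 0.000881), beside 3.72% of all genes tested.

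Lgr5, known as a marker of Wnt-driven stem cells in gut epithelium, was at 30.7, 31.4 and 29.0 CPM in Leydig, 6.73, 6.87 and 6.29 CPM in Interstitial and 98.5, 110 and 103 CPM in Sertoli. Its order was that of Wnt6 and Fzd9, with no overlap. The difference was -1.79 ± 0.08 in Leydig against Sertoli (adjusted p 1.53e-06), 2.20 ± 0.09 in Leydig against Interstitial (8.88e-07) and -4.00 ± 0.09 in Interstitial against Sertoli (8.68e-09). Per kb, Lgr4 exceeded Lgr5 by a factor of 23.8 in Leydig, 77.4 in Interstitial and 5.02 in Sertoli. Lgr6 was scarce, at 0.752, 0.951 and 0.595 CPM in Leydig, 0.792, 0.873 and 0.696 CPM in Interstitial and 0.309, 0.352 and 0.188 CPM in Sertoli. Its call in Leydig against Sertoli (1.32 ± 0.33, 0.0138) was lost without Leydig replicate B (0.0795), Sertoli A (0.0849) or Sertoli B (0.0577), and that in Interstitial against Sertoli (1.27 ± 0.33, 0.00939) without Sertoli A (0.0587).

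Of the secreted Frizzled-related inhibitors, Sfrp1 and Sfrp2 were high outside Sertoli and Sfrp4 was high in Sertoli. Sfrp1, which acts together with Sfrp2 in mouse male sexual development, was the most abundant of them in every population, at 33.1 CPM per kb in Leydig, 37.1 in Interstitial and 12.8 in Sertoli. It was at 157, 132 and 157 CPM in Leydig, 175, 150 and 170 CPM in Interstitial and 55.5, 56.6 and 57.5 CPM in Sertoli. Leydig and Interstitial overlapped, and both exceeded Sertoli by 1.32 ± 0.10 (adjusted p 1.91e-05) and 1.48 ± 0.10 (4.07e-06). Sfrp2 was at 5.72, 5.22 and 5.22 CPM in Leydig, 18.6, 17.2 and 17.2 CPM in Interstitial and 1.74, 1.58 and 2.05 CPM in Sertoli, with the 3 populations apart. Its difference was 1.67 ± 0.15 in Leydig against Sertoli (4.28e-05), -1.70 ± 0.12 in Leydig against Interstitial (2.44e-05) and 3.37 ± 0.14 in Interstitial against Sertoli (2.08e-07).

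Sfrp4 was at 3.70, 4.29 and 4.14 CPM in Leydig, 0.569, 0.786 and 0.448 CPM in Interstitial and 14.2, 14.5 and 13.9 CPM in Sertoli. No libraries of different populations overlapped. Its difference was -1.88 ± 0.15 in Leydig against Sertoli (adjusted p 2.69e-05), 2.58 ± 0.20 in Leydig against Interstitial (3.64e-05) and -4.46 ± 0.19 in Interstitial against Sertoli (2.26e-07). Wif1, another secreted protein that binds Wnts, was at 1.47, 1.59 and 1.49 CPM in Leydig, 1.09, 0.989 and 1.07 CPM in Interstitial and 5.22, 5.52 and 5.06 CPM in Sertoli. It was lower in Leydig than in Sertoli (-1.85 ± 0.19, 8.68e-05) and in Interstitial than in Sertoli (-2.42 ± 0.19, 9.98e-06), and missed the threshold in Leydig against Interstitial (0.57 ± 0.21, 0.0573). Beside these values, the log2 differences of the Sertoli markers had a median of -1.79 in Leydig against Sertoli and of 2.90 in Leydig against Interstitial. The part of Sertoli cells in the Leydig sort was not tested. Sfrp5 had a few reads outside Interstitial, at 0.0301, 0.0288 and 0.0541 CPM in Leydig, 0.717, 0.291 and 0.348 CPM in Interstitial and 0, 0.0293 and 0 CPM in Sertoli. Over replicates A and B, 2 reads in Leydig stood against 39 in Interstitial, a ratio of 0.0565 (95% exact interval 0.0066 to 0.218). Against Sertoli, with 1 read, the fitted log2 difference of 4.81 in Interstitial ran from 3.92 without Sertoli A to 7.19 without Sertoli B. Frzb lay between 3.19 and 4.84 CPM in all libraries, and its 1 call, in Interstitial against Sertoli (-0.45 ± 0.16, 0.0359), was lost when any of the 6 libraries of A and B other than Leydig A was left out, with adjusted p of 0.0679 to 0.179.

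The 3 Dickkopf genes were higher in Interstitial than in Sertoli. Dkk1, the inhibitor that blocks Lrp5 and Lrp6, was at 15.4, 9.91 and 13.4 CPM in Leydig, 15.0, 11.5 and 15.1 CPM in Interstitial and 2.86, 2.79 and 2.72 CPM in Sertoli. Leydig and Interstitial overlapped, and both lay above Sertoli, by 2.12 ± 0.24 (adjusted p 0.000153) and 2.17 ± 0.23 (6.17e-05). Its window holds the most motif matches of the sequences printed above. Dkk3, a divergent member of the family, was at 16, 13.5 and 15.8 CPM in Leydig, 12.5, 11 and 13 CPM in Interstitial and 4.35, 6.13 and 4.82 CPM in Sertoli. It was higher in Leydig (1.45 ± 0.18, 0.000246) and in Interstitial (1.11 ± 0.18, 0.000592) than in Sertoli. Dkk2 varied between pools, at 0.662, 0.519 and 0.703 CPM in Leydig, 4.97, 2.01 and 4.43 CPM in Interstitial and 0.533, 0.205 and 0.350 CPM in Sertoli. Its difference was -2.56 ± 0.50 in Leydig against Interstitial (0.00342), or -1.76 without Interstitial replicate A, and 3.17 ± 0.53 in Interstitial against Sertoli (0.000844), with 2.42 to 4.01 when single libraries were left out.

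The feedback genes did not move as one. Axin2, a β-catenin target that in turn limits the pathway, was at 40.3, 37.5 and 40.7 CPM in Leydig, 57.1, 59.4 and 52.8 CPM in Interstitial and 20.2, 22.5 and 20.6 CPM in Sertoli. Lef1, a transcription factor of the pathway and one of its targets, was at 24.2, 26.8 and 25.5 CPM in Leydig, 37.6, 40.3 and 36.8 CPM in Interstitial and 10.8, 9.71 and 9.96 CPM in Sertoli. For both genes the 3 populations were separated, with Interstitial highest and Sertoli lowest. Axin2 differed by 0.82 ± 0.08 in Leydig against Sertoli (adjusted p 8.71e-05), -0.57 ± 0.08 in Leydig against Interstitial (0.000691) and 1.39 ± 0.08 in Interstitial against Sertoli (1.57e-06). Lef1 differed by 1.27 ± 0.10 (2.1e-05), -0.59 ± 0.09 (0.00119) and 1.87 ± 0.10 (8.32e-07) in the same order.

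Znrf3 had the reverse order, with 37.1, 39.0 and 38.6 CPM in Leydig, 30.6, 34.0 and 28.9 CPM in Interstitial and 60.8, 72.4 and 64.6 CPM in Sertoli. Every Sertoli library was above every other. The difference was -0.85 ± 0.10 in Leydig against Sertoli (adjusted p 0.000187) and -1.10 ± 0.10 in Interstitial against Sertoli (1.98e-05), and Leydig against Interstitial missed the threshold (0.25 ± 0.10, 0.0698). Per kb, the ratio of Znrf3 to Axin2 was 0.642, 0.725 and 0.661 in Leydig, 0.374, 0.400 and 0.382 in Interstitial and 2.10, 2.24 and 2.19 in Sertoli, so that Znrf3 exceeded Axin2 in Sertoli and lay below it in both other populations. Its relative Rnf43 was scarcer and had another order, with 2.71, 2.54 and 2.30 CPM in Leydig, 8.24, 7.01 and 6.81 CPM in Interstitial and 5.61, 4.43 and 5.33 CPM in Sertoli. Rnf43 was lower in Leydig than in Sertoli (-0.98 ± 0.19, 0.00323) and than in Interstitial (-1.53 ± 0.18, 0.000301). Its call in Interstitial against Sertoli (0.55 ± 0.17, 0.0213) was lost without Sertoli replicate B (0.15) or Interstitial A (0.0969).

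**Figure D4:**
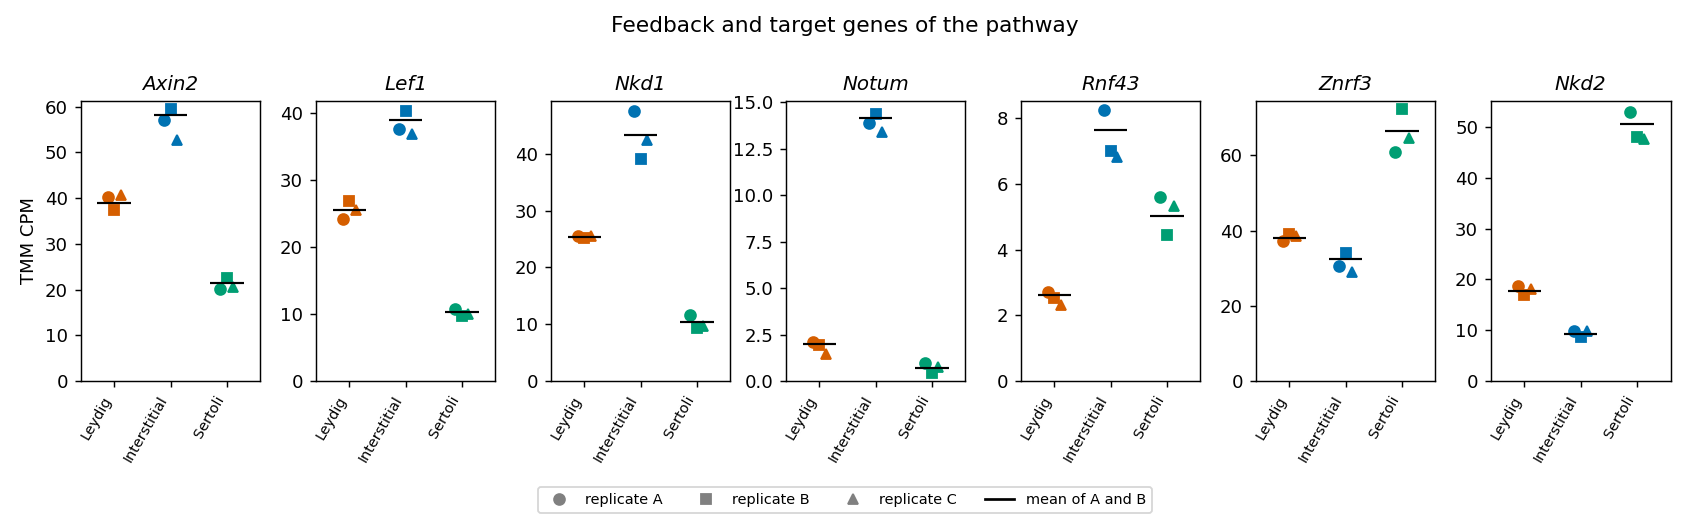
TMM-scaled CPM of 7 feedback and target genes in each library, with the mean of replicates A and B as a line. Axin2, Lef1, Nkd1, Notum and Rnf43 are highest in Interstitial, whereas Znrf3 and Nkd2 are highest in Sertoli.

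Over the 39 tested genes, 17 were called higher in Interstitial than in both other populations, beside 19.7% of all genes tested. Without the genes tested only through Interstitial, this was 13 of 34. In Sertoli, 7 of the 39 were called higher than in both others, a share near the 17.6% of all genes tested. These 7 were Wnt6, Fzd3, Fzd9, Lgr5, Sfrp4, Wif1 and Znrf3. The Leydig mean lay between the other 2 means for 28 of the 39 (71.8%), as it did for 58.0% of all genes tested. Among the 28 are Wnt7a, Wnt9b, Wnt16 and Sfrp5, which passed the filter only through Interstitial. For Wnt7a, Wnt9b and Sfrp5, Leydig and Sertoli each had at most 4 reads over replicates A and B, so their order is not resolved. With a 2-fold minimum, 13 were higher and 5 lower in Leydig than in Sertoli, 4 were higher and 12 lower in Leydig than in Interstitial, and 22 were higher and 6 lower in Interstitial than in Sertoli. Over all genes the shares that passed with that minimum were 7.18% and 6.54%, 5.70% and 9.56%, and 16% and 11.9%. The 12 include Wnt7a, Wnt7b, Wnt9b and Sfrp5, and the 22 include these and Wnt16, which is also among the 13. All of them passed the filter only through Interstitial, so the filter partly set these counts. In the authors' deposited tables of limma results, 17, 14 and 24 of the Wnt genes are listed for these comparisons, and each was called in the same direction here. Those tables rest on the same sequencing data, so the shared direction is not independent support. Each Wnt gene they list has an absolute log2 fold change of at least 1.02, whereas a call here needed no fold minimum.

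**Figure D5:**
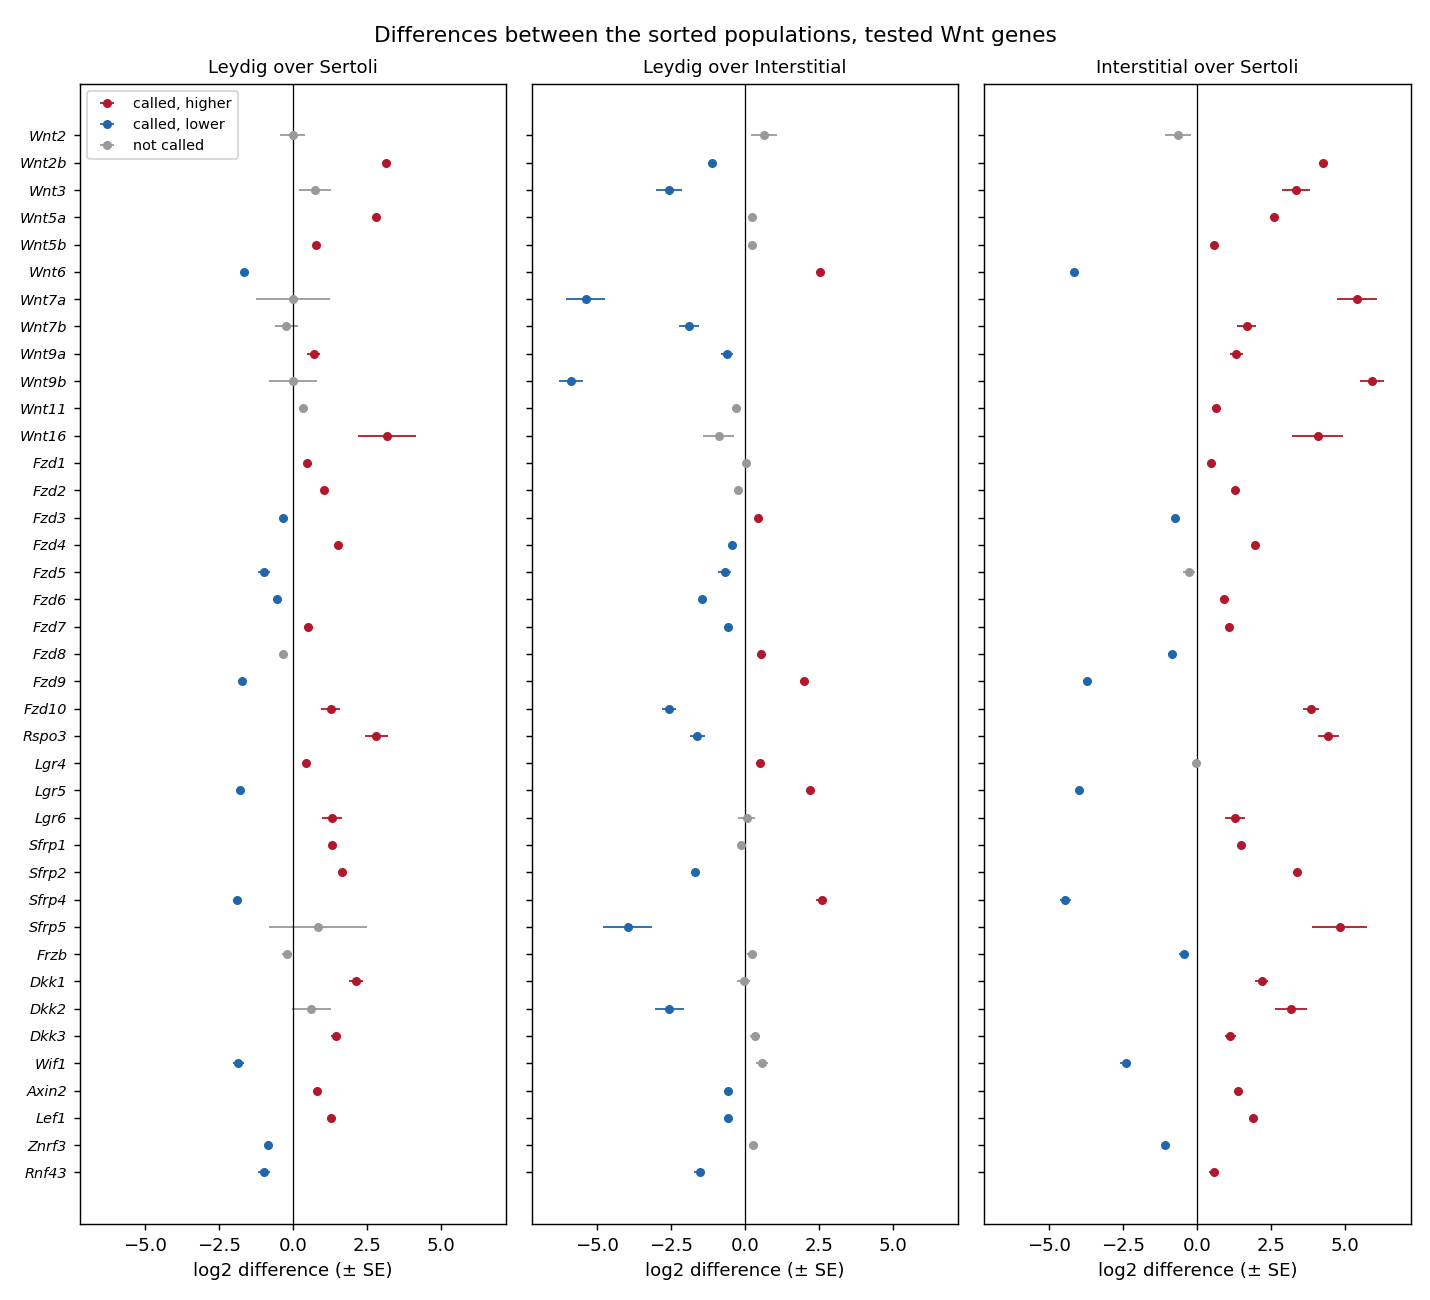
Log2 difference and its SE for the 39 tested Wnt genes in Leydig over Sertoli, Leydig over Interstitial and Interstitial over Sertoli; red marks genes called higher, blue genes called lower and grey genes not called. In Interstitial over Sertoli 27 lie to the right and 9 to the left among the called (32.7% and 29.1% of all genes tested). Without the 5 genes tested only through Interstitial, 22 and 9 of 34 remain.

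A second list of 53 Wnt pathway genes, all of them tested, covered co-receptors, secretion, other inhibitors, the β-catenin destruction complex, nuclear factors and planar polarity. Of these, 19 were higher and 12 lower in Leydig than in Sertoli, 13 were higher and 14 lower in Leydig than in Interstitial, and 26 were higher and 12 lower in Interstitial than in Sertoli. The shares called were 58.5%, 50.9% and 71.7% in these comparisons, beside 37.5%, 45.1% and 61.8% of all genes tested. Differences were smaller in the intracellular core than among the inhibitors. Over the 10 genes of the destruction complex and β-catenin, the median absolute log2 difference was 0.12, 0.14 and 0.22 in these comparisons, and over the 11 other secreted or membrane inhibitors it was 0.99, 0.95 and 2.33. Ctnnb1, which encodes β-catenin, ran from 866 to 1030 CPM over all 9 libraries and was not called between Leydig and Sertoli (-0.10 ± 0.06, adjusted p 0.23). It was higher in Leydig than in Interstitial by 0.19 ± 0.06 (0.0341), a call lost without Leydig replicate A (0.123), Leydig B (0.0606), Interstitial A (0.123) or Interstitial B (0.166).

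The co-receptor Lrp5 was highest in Sertoli, with 102, 93.3 and 97.9 CPM in Leydig, 73.9, 75.7 and 65.8 CPM in Interstitial and 130, 136 and 125 CPM in Sertoli, and its log2 difference was -0.48 ± 0.07 in Leydig against Sertoli (adjusted p 0.000508) and -0.89 ± 0.07 in Interstitial against Sertoli (6.96e-06). Lrp6 lay between 185 and 252 CPM. Wls, which carries Wnts to the cell surface, was lower in Interstitial than in Sertoli (-0.51 ± 0.07, 0.000376) and higher in Leydig than in Interstitial (0.47 ± 0.07, 0.00116). Porcn, which adds their lipid, was lower in Leydig than in Interstitial (-0.74 ± 0.22, 0.0245, lost without Leydig replicate A at 0.0799 or Interstitial B at 0.12) and higher in Interstitial than in Sertoli (1.39 ± 0.23, 0.000873). Ror2, a receptor for Wnt5a, was lower in Leydig than in Sertoli (-0.60 ± 0.11, 0.0032), whereas Wnt5a was higher in Leydig. Ror2 was the exception among the 4 alternative Wnt receptors of this list, of which 3 were called higher in Leydig than in Sertoli. The factor Tcf7l1 was higher in Leydig (0.82 ± 0.11, 0.000451) and in Interstitial (0.88 ± 0.11, 0.000147) than in Sertoli, and Tcf7l2 was higher in Leydig than in Sertoli (0.34 ± 0.10, 0.0274) and than in Interstitial (0.29 ± 0.10, 0.0418). The first Tcf7l2 call was lost without Leydig replicate B (0.0885), Sertoli A (0.144) or Sertoli B (0.0749), and the second without any library of A and B except Leydig A (0.0585 to 0.242).

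Notum, an enzyme that removes the lipid from Wnts and a target of the pathway, was highest in Interstitial, as Wnt3 and Fzd10 were. Its level was 2.08, 1.93 and 1.43 CPM in Leydig, 13.9, 14.4 and 13.4 CPM in Interstitial and 0.982, 0.411 and 0.727 CPM in Sertoli. Unlike Wnt3 and Fzd10, it was not highest in replicate B among the Leydig libraries. It was lower in Leydig than in Interstitial (-2.80 ± 0.24, adjusted p 5.66e-05) and higher in Leydig than in Sertoli (1.47 ± 0.31, 0.00618, or 2.24 without Sertoli replicate A). Kremen2 (-2.56 ± 0.35) and Apcdd1 (-1.55 ± 0.21), both inhibitors at the membrane, were also lower in Leydig than in Interstitial, as was the polarity gene Celsr3 (-3.01 ± 0.61), whose difference ran from -4.12 without Leydig replicate B to -2.31 without Interstitial B. Sost, an Lrp5 and Lrp6 inhibitor known from bone, was at 0.933, 0.922 and 0.839 CPM in Leydig, 0.396, 0.233 and 0.323 CPM in Interstitial and 0.0842, 0.0293 and 0.0539 CPM in Sertoli. Over replicates A and B it had 63 reads in Leydig and 4 in Sertoli, a ratio of 16.2 (95% exact interval 6.01 to 61.1). Its fitted log2 difference was 3.90 ± 0.53, and 4.79 without Sertoli replicate A. Its paralogue Sostdc1 was higher in Leydig than in Sertoli as well (2.85 ± 0.26, 5e-05), as were Draxin (2.63 ± 0.36, 0.000538) and the scarce Dkkl1, with 22 reads in Leydig and 3 in Sertoli (ratio 7.52, 2.26 to 39.3). The Dkkl1 call (adjusted p 0.0149) was lost without Leydig replicate B (0.0686), Sertoli A (0.0719) or Sertoli B (0.109).

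Other pathway genes were higher in Sertoli, as Wnt6 was. Nkd2, a feedback inhibitor that acts on Dishevelled, was at 18.6, 16.9 and 18.2 CPM in Leydig, 9.80, 8.61 and 9.77 CPM in Interstitial and 53.0, 48.1 and 47.6 CPM in Sertoli, and differed by -1.55 ± 0.10 in Leydig against Sertoli (adjusted p 7.24e-06) and -2.51 ± 0.10 in Interstitial against Sertoli (1.85e-07). Its paralogue Nkd1 had the opposite order (1.23 ± 0.14 in Leydig against Sertoli, 0.000138). Kremen1, a receptor for Dkk1, was lower in Leydig than in Sertoli (-0.99 ± 0.09, 3.77e-05) and in Interstitial than in Sertoli (-1.47 ± 0.09, 1.61e-06). Gpc4 was lower in Interstitial than in Sertoli (-1.82 ± 0.09, 5.09e-07), and Dact2 (-1.11 ± 0.14, 0.000322) and Celsr2 (-0.86 ± 0.14, 0.00146) were lower in Leydig than in Sertoli. Dact1 was higher in Leydig than in Interstitial (0.51 ± 0.11, 0.00632).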

How the data were processed

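Per the labels' protocols, libraries were made from 100 ng of total RNA with a stranded, ribosome-depleted kit and run over 4 lanes. The authors deposited raw read counts for each gene in each lane, made with TopHat2 2.0.6 on mm10 and HTSeq per the submitters' processing notes; no source used here gives the annotation release or strand setting. Their deposited limma tables list log2 fold changes, average log2 expression and adjusted p-values per the file headers, with scores that were not used here. HTSeq's summary lines (no feature, 32.23 to 38.52% of reads, and ambiguous, 0.62 to 0.77%) were left out.

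Lanes were summed. Symbols and exon lengths came from GENCODE M21 (GRCm38). Replicates A and B of every population (6 libraries, 3 residual degrees of freedom) were fitted with edgeR 4.0.16 in R 4.3.3 (glmQLFit, glmQLFTest, TMM, filterByExpr with a count minimum of 10), with Benjamini-Hochberg adjustment over 18048 genes and a threshold of 0.05. The SE is the log2 difference over the root of F. The script was tested on simulated counts. Ratios of low counts have exact 95% intervals. The members and lists were chosen with earlier results of these data known. All 47 genes could be named; values per library are given for those called with a 2-fold difference in at least 1 comparison, and for Lgr4, chosen after its values were seen. Of the 53 other pathway genes, 9 fixed ones and the 4 with the largest called differences each way in each comparison are named, some with values per library. Nkd1 was named after its values were seen. Alternatives were RLE scaling, scaling by total reads, no filter, 1 CPM in 2 libraries, DESeq2 1.42.0, limma voom 3.58.1, all 9 libraries, a replicate block and leaving out each library.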

Additional observations from a re-analysis of the deposited data

How the results depend on the processing

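Across all alternatives no called log2 difference of a Wnt gene or of a named pathway gene changed sign. Of the called Wnt genes, 22 of 29 in Leydig against Sertoli, 22 of 25 in Leydig against Interstitial and 32 of 36 in Interstitial against Sertoli passed the threshold under every alternative in which they were tested. Scarce genes met fewer alternatives: Wnt16, Sfrp5 and Lgr6, below 1 CPM in every library, were not tested with the filter at 1 CPM in 2 libraries. With all 9 libraries, which count the mix as a sample of its own, Leydig exceeded Interstitial in 13 Wnt genes in place of 7, and 4714 genes in all were higher in Leydig than in Sertoli in place of 3053. DESeq2 called 9 other pathway genes lower in Leydig than in Interstitial in place of 14; the cause was not tested. Leaving out single libraries gave 8 to 12 other pathway genes higher in Leydig than in Interstitial in place of 13, and 2565 to 3740 genes in all in place of 3966, the lowest of both without Interstitial replicate B. Scaling by total reads alone moved the median of all genes by 0.102 in Leydig against Sertoli and 0.168 in Interstitial against Sertoli, and the share of calls that were higher to 58.8%, in place of 45.1%, and to 65.2%, in place of 52.9%. Wnt5a passed the threshold in Leydig against Interstitial with DESeq2 (adjusted p 0.0355) and limma voom (0.0473). Whether the replicate letters pair the populations cannot be told, because no label ties the letters, and the main fit did not pair them. Over genes, the A minus B deviations correlated at 0.248 between Interstitial and Leydig, 0.1 between Interstitial and Sertoli and 0.018 between Leydig and Sertoli. With the replicate block, 20 Wnt genes were higher and 11 lower in Leydig than in Sertoli, 10 higher and 20 lower in Leydig than in Interstitial, and 27 higher and 10 lower in Interstitial than in Sertoli. Depth limits the genes below 1 CPM, such as Wnt16, Sfrp5 and Lgr6.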
